A study of Mus musculus with 4 samples.

Results

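The Hox genes encode homeodomain transcription factors and lie in 4 clusters, *Hoxa*, *Hoxb*, *Hoxc* and *Hoxd*. Members were taken by symbol: every gene named *Hox*, a cluster letter from a to d and a paralog number. There were 39 of them among the 33696 genes counted, 11 in *Hoxa*, 10 in *Hoxb*, 9 in *Hoxc* and 9 in *Hoxd*, with paralog numbers from 1 to 13.

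Within each cluster the genes are ordered as they are used along the body axis, low paralog numbers toward the head and high ones toward the tail. Mesenchymal cells of adult organs keep part of the Hox pattern laid down in the embryo, so the set of Hox genes a fibroblast or mesothelial cell transcribes is used as a record of its position of origin. Hox proteins bind DNA together with cofactors of the TALE class (Pbx, Meis and Pknox), and Trithorax and Polycomb complexes hold the clusters active or silent.

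The cells came from intraperitoneal B16-F1-OVA melanomas, taken 14 days after implantation. The hosts were C57Bl/6 mice carrying *Cxcl13*-cre-tdTomato and R26R-eGFP flox. In them tdTomato reports *Cxcl13* promoter activity at sampling. A floxed stop keeps eGFP off until cre, made from the same promoter, removes it. Such cells are marked by eGFP whether or not tdTomato is still made. From cells without CD45 and CD31 and with high podoplanin, 4 populations were sorted by reporter (tdTomato neg eGFP neg, then tdTomato neg eGFP+, tdTomato+ eGFP neg and tdTomato+ eGFP+), each made into 1 library of 10x Genomics 3′ unique molecular identifier (UMI) counts. All 4 populations share the host genotype, the tumor line, the site and the day, and male and female mice were used. Host age and the number of animals behind each library are not given in the sources used here. There was no tumor-free peritoneum, no other site and no replicate library, so the values describe 4 libraries of 1 tumor model at 1 time.

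Of 24489 barcodes, 22691 had 500 to 6000 genes and at most 10% mitochondrial UMIs and were kept: 10813, 6006, 4952 and 920 in the tdTomato neg eGFP neg, tdTomato neg eGFP+, tdTomato+ eGFP neg and tdTomato+ eGFP+ libraries. Values by library are given in this order throughout. Median UMIs per kept cell were 5607, 8399, 9154 and 8670.5, and 57 barcode sequences occurred in more than 1 library. Kept cells were classed by marker UMIs. Pi16-positive cells (3025) had a *Pi16* UMI, matrix-gene cells (1186) had *Mfap4* and *Lum* without *Pi16*, mesothelial-gene cells (5779) had at least 2 of *Msln*, *Upk3b* and *Wt1*, and melanoma cells (431) had *Pax3* and *Mlana*. The markers are not reported as results. Another 392 cells had UMIs of *Ptprc* and a further immune gene, and 11878 cells, 52.3% of those kept, met no condition or tied. Levels are UMIs per 1000000 (CPM) of the summed UMIs of a class in a library. A class mean weights libraries of at least 50 cells equally, which leaves the tdTomato+ eGFP+ library out for Pi16-positive, matrix-gene, melanoma and immune cells. Intervals are exact 95% intervals and cover counting error only. Because 3′ UMI counting reads one end per transcript, CPM were not divided by gene length when genes are set side by side.

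Hox RNA was present in all 4 classes and was a small part of each. Kept cells held 43873 Hox UMIs. Summed over the 39 genes, the mean level was 272 CPM in Pi16-positive, 297 in matrix-gene, 208 in mesothelial-gene and 109.8 in melanoma cells. By library the sum was 266, 250.1 and 301 CPM in Pi16-positive, 277, 325 and 288 in matrix-gene, 209.6, 222, 216 and 183 in mesothelial-gene and 109, 108 and 112 in melanoma cells. Every melanoma value lay below every stromal value. Pi16-positive and matrix-gene values overlapped, and mesothelial-gene values lay below both.

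A Hox UMI was found in 66.9% of Pi16-positive, 82.6% of matrix-gene, 78.6% of mesothelial-gene and 80.3% of melanoma cells, whose median depths were 4622, 8509, 10177 and 20882 UMIs. Immune cells, at a median of 8622.5 UMIs, had one in 50.0%. The share of cells with a UMI depends on depth as well as level, and the place it gives melanoma cells goes against the CPM, so no order is read from it. With each cell thinned to 1000 UMIs the Hox shares were 24.4%, 24.3%, 19.4% and 11.9%, and 8.20% in immune cells. The immune cells also carried fibroblast RNA, with 8 of 8 matrix markers found, adding up to 7958, 12086.5 and 17843 CPM in the libraries with at least 50 of them (*Col3a1* highest). In the same libraries 9 of 9 mesothelial markers (*Upk1b* highest) added up to 1312, 868 and 359 CPM. All 7 melanoma markers (*Dct* highest in the class mean) added up to 579, 101 and 486 CPM. The mean Hox level of immune cells was 140.5 CPM. How much of it came from free RNA was not tested.

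Of the 39 genes, 17 reached a mean of 5 CPM in at least 1 class: *Hoxa2*, *Hoxa3*, *Hoxa4*, *Hoxa5*, *Hoxa7*, *Hoxa9*, *Hoxa10*, *Hoxa11*, *Hoxb2* to *Hoxb8*, *Hoxc4* and *Hoxd4*. Another 18 were detected at no more than 2.43 CPM in any class, and *Hoxb13*, *Hoxc11*, *Hoxd1* and *Hoxd12* had no UMI in kept cells. In all, 28 genes had at least 20 UMIs and 7 had 1 to 19.

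**Figure D1:**
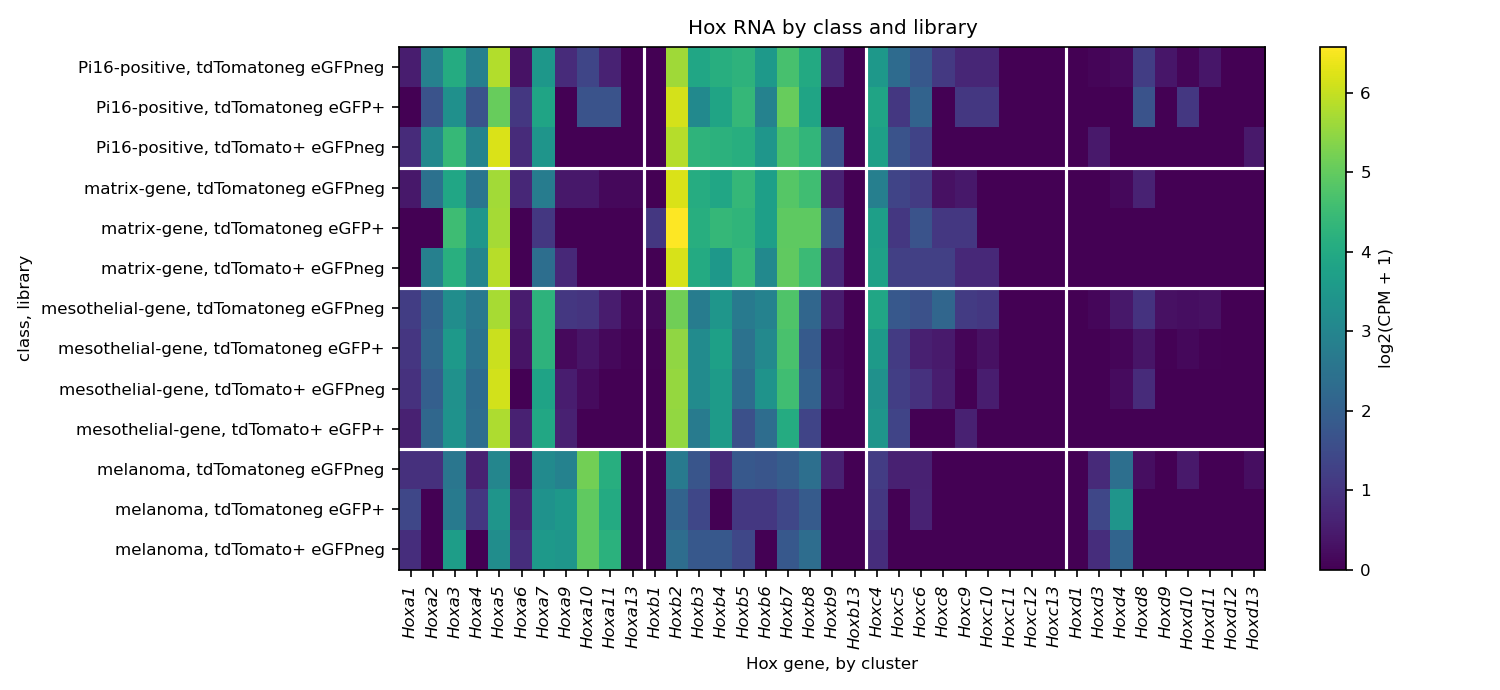
Hox RNA by class and library. Each cell of the map is the CPM of 1 Hox gene, on a log2 scale after adding 1, in a class of a library with at least 50 cells. Genes are ordered by cluster and paralog number.

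The stromal classes shared a profile led by 2 genes, *Hoxa5* and *Hoxb2*. *Hoxa5*, which patterns the lung and the upper trunk skeleton, measured 55.2, 31.9 and 73.4 CPM in Pi16-positive, 50.2, 50.6 and 57.8 in matrix-gene, 51.9, 64.9, 69.0 and 53.9 in mesothelial-gene and 7.09, 9.78 and 8.29 in melanoma cells. *Hoxb2*, a hindbrain and neck patterning gene, measured 49.1, 70.5 and 56.7, 73.2, 94.6 and 71.0, 34.5, 44.1, 45.3 and 44.7 and 5.49, 3.26 and 4.14 CPM in the same classes. *Hoxa5* thus overlapped among the stromal classes, and *Hoxb2* was above *Hoxa5* in the matrix-gene cells of each library and below it in the mesothelial-gene cells of each library. A *Hoxa5* UMI was seen in 24.99%, 33.2% and 40.4% of the stromal classes, against 13.7% of the deeper melanoma cells, and after thinning in 5.67%, 4.82% and 5.59% against 1.40%. Immune cells held *Hoxa5* at 37.7 CPM (36.8 to 38.2 by library), with a UMI in 25.3% of them and, after thinning, in 1.32% (0.431 to 3.06).

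*Hoxb7*, a trunk gene, was next, at 24.3, 31.9 and 24.97 CPM in Pi16-positive, 27.9, 29.7 and 30.6 in matrix-gene, 26.0, 24.9, 22.5 and 15.4 in mesothelial-gene and 2.83, 1.63 and 2.49 in melanoma cells. *Hoxa3*, needed for the thymus and parathyroids, measured 15.5, 8.81 and 20.1, 13.8, 22.0 and 16.7, 8.27, 10.5, 9.002 and 9.24 and 4.96, 5.43 and 11.6 CPM. *Hoxb4*, known for its action in blood stem cells, measured 16.3, 13.2 and 17.9, 13.8, 19.8 and 10.4, 10.1, 12.3, 11.3 and 11.3 and 0.709, 0 and 2.49 CPM. Each stromal value of *Hoxb7* and *Hoxb4* was above each melanoma value, while the *Hoxa3* ranges overlapped, its melanoma level in the tdTomato+ eGFP neg library being above each mesothelial-gene level. *Hoxb6*, another trunk gene, measured 10.5, 6.61 and 10.1, 12.1, 12.1 and 7.66, 6.60, 7.48, 9.45 and 4.11 and 2.30, 1.09 and 0 CPM, and *Hoxc4*, of the neck and upper thorax, 10.4, 13.2 and 12.3, 6.12, 12.1 and 12.5, 13.9, 10.9, 9.002 and 9.75 and 1.24, 1.09 and 0.829. *Hoxa2*, which patterns the hindbrain and face, measured 6.39, 2.20 and 7.45, 4.45, 0 and 6.26, 3.19, 3.55, 3.00 and 3.59 and 0.886, 0 and 0 CPM, and *Hoxa4*, of the neck vertebrae, 6.21, 2.20 and 6.71, 4.90, 9.90 and 6.96, 5.16, 4.69, 3.90 and 4.11 and 0.531, 1.09 and 0. None of these 7 genes was past 2-fold among the stromal classes under the rule given below.

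By cluster, *Hoxb* genes made up 58.6% of Hox UMIs in Pi16-positive, 65.9% in matrix-gene, 46.3% in mesothelial-gene and 15.1% in melanoma cells, as means over libraries. *Hoxa* genes made up 33.8%, 29.0%, 45.9% and 77.0%. The *Hoxc* genes added up to 18.3, 15.1, 15.4 and 1.59 CPM and the *Hoxd* genes to 2.07, 0.223, 0.857 and 7.07 CPM. The summed *Hoxa* level was thus alike in melanoma and matrix-gene cells, 84.5 and 85.7 CPM, while different members carried it.

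Class comparisons, 4 in all, were read over all genes with at least 20 UMIs in both classes together. A gene was called where the log2 ratio of class means, after adding 1 CPM, was at least 1 in size (2-fold) and had the same sign within each library with 50 cells of both classes. Each comparison rested on the tdTomato neg eGFP neg, tdTomato neg eGFP+ and tdTomato+ eGFP neg libraries (each another sorted population), and no test across them was made.

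Hox genes were called between mesothelial-gene and matrix-gene cells about as often as genes at large. Of the 4 Hox genes called, 3 were in the *Hoxb* cluster, and of these 3 *Hoxb8* and *Hoxb5* were the furthest apart. Of 24 Hox genes tested, 1 was called higher in mesothelial-gene cells and 3 lower, where 6.77% and 6.90% of 15950 genes were called. The median log2 ratio of the Hox genes was -0.18, against 0.06 over all genes. *Hoxb8*, which acts in the trunk and in blood progenitors, measured 3.49, 2.66, 3.15 and 1.54 CPM in mesothelial-gene cells, against 22.5, 29.7 and 21.6 in matrix-gene and 15.1, 13.2 and 19.01 in Pi16-positive cells, a log2 ratio of -2.64 over matrix-gene cells (-3.07 to -2.39 by library). *Hoxb5*, known in lung and gut mesenchyme, measured 5.45, 4.596, 3.90 and 2.05, 19.7, 18.7 and 20.2 and 17.9, 19.8 and 16.4 CPM, a log2 ratio of -1.86. The mesothelial-gene cells of each library were below the matrix-gene and Pi16-positive cells of each library for both genes. In cells thinned to 1000 UMIs a *Hoxb8* UMI was found in 0.382% of mesothelial-gene, 2.03% of matrix-gene and 1.41% of Pi16-positive cells. The share was 0.233% in melanoma and 0.794% (0.164 to 2.30) in immune cells. The mesothelial-gene share was thus no higher than the immune one and lay within its interval.

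*Hoxb3*, a gene of the neck and hindbrain, measured 5.79, 8.01, 7.95 and 5.65 CPM in mesothelial-gene, 15.8, 16.5 and 15.3 in matrix-gene, 13.8, 7.71 and 18.3 in Pi16-positive and 2.30, 1.63 and 2.49 in melanoma cells. Its log2 ratio of -1.03 was just past the threshold and was -0.91 without the tdTomato neg eGFP neg library. *Hoxa7*, a thoracic patterning gene, went the other way, at 18.0, 18.0, 13.2 and 14.4 CPM in mesothelial-gene and 5.79, 1.10 and 4.18 in matrix-gene cells, with 10.1, 13.2 and 9.69 in Pi16-positive and 7.79, 9.24 and 10.8 in melanoma cells. Its log2 ratio of 1.89 ran from 1.46 to 3.18 by library, and the highest rested on 1 UMI in the matrix-gene cells of the tdTomato neg eGFP+ library. Pooled over libraries, the *Hoxa7* ratio was 3.36 (2.59 to 4.44). The *Hoxb3* call was also lost with classes by nearest mean profile (-0.97) and with 5 CPM added (-0.77), and that of *Hoxb5* in *Xist*-marked cells (-0.98). The summed *Hoxb* level was 100.1 CPM against 196, and the summed *Hoxa* level 98.0 against 85.7. Mesothelial-gene cells held RNA of all 8 matrix markers, *Col3a1* highest, summing to 9187, 12812 and 17364 CPM against 32360, 43560 and 48911 in the matrix-gene cells of the same libraries, with *Col3a1* at 28.9%, 31.5% and 37.5% of its matrix-gene level. Its part in the mesothelial-gene *Hoxb5* and *Hoxb8* levels was not tested.

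**Figure D2:**
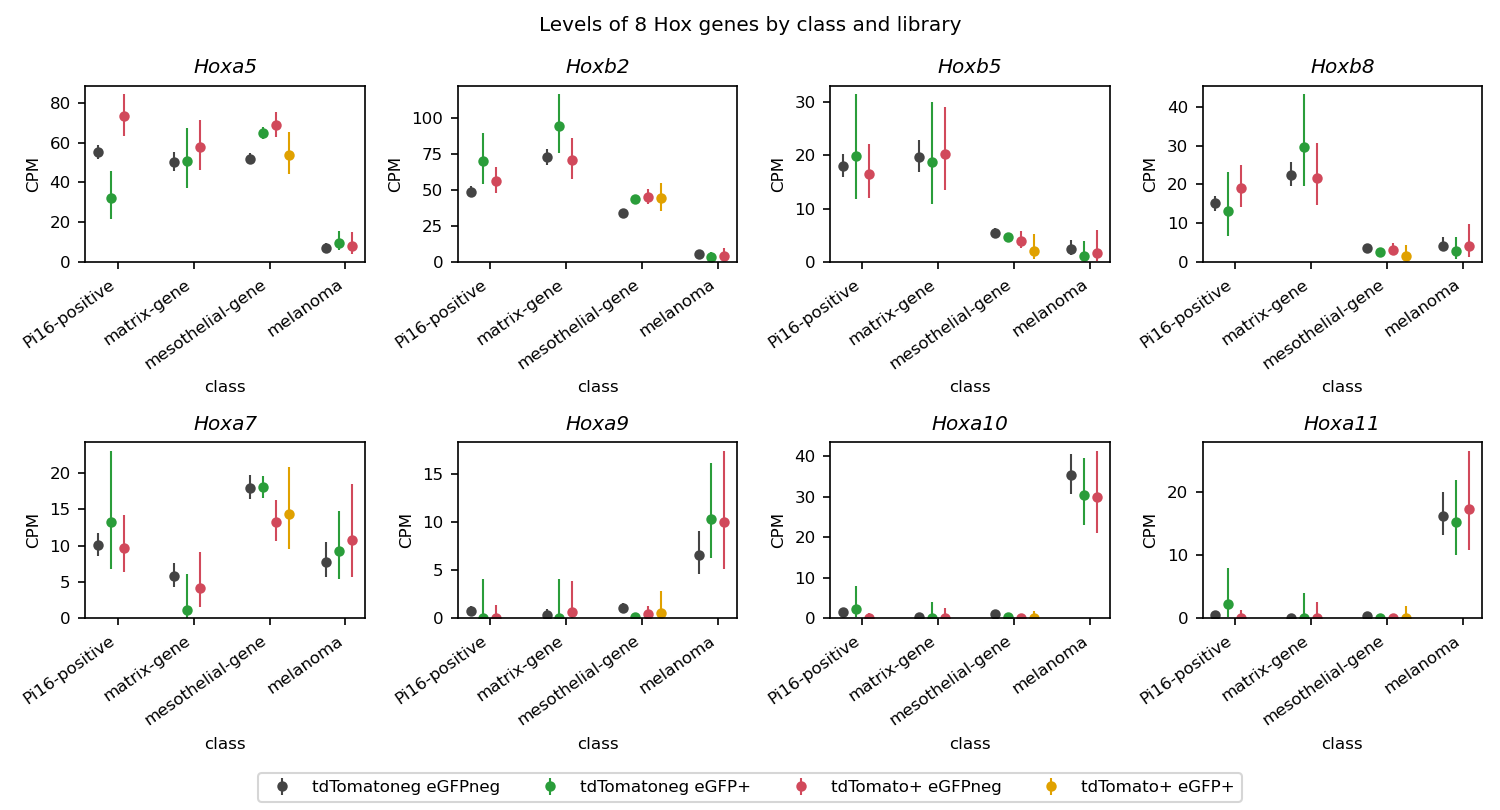
Levels of 8 Hox genes by class and library. Points are CPM in classes of at least 50 cells, and bars are exact 95% intervals for counting error only.

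Between Pi16-positive and matrix-gene cells, too, the Hox count was near the share over all genes. Of 19 Hox genes, 1 was called higher and 0 lower, where 3.01% and 0.816% of 14217 genes were called, and the median log2 ratios were -0.11 for Hox genes and 0.05 for all genes. The called gene was *Hoxa7*, at 11.0 against 3.69 CPM (log2 ratio 1.36). It fell to 0.87 without the tdTomato neg eGFP+ library, where the matrix-gene level rested on 1 UMI, so the call depended on that library, and it was lost too with UMIs pooled (0.85), with 5 CPM added (0.88) and in *Xist*-marked (0.83) and Y-marked cells (0.64). *Hoxb8* was lower in each library, at 15.8 against 24.6 CPM, without reaching 2-fold, and with classes by nearest mean profile the 2 levels were 15.4 and 15.2 CPM.

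Against mesothelial-gene cells, Pi16-positive cells were called at 2 *Hoxb* genes, again near the share over all genes. Of 25 Hox genes, 2 were called higher (*Hoxb5* and *Hoxb8*) and 0 lower, where 7.34% and 4.99% of 16305 genes were called, with medians of 0.38 and 0.00. The *Hoxb8* log2 ratio was 2.03 (1.84 to 2.27 by library) and that of *Hoxb5* 1.75 (1.55 to 1.90), whose call was lost in thinned cells, though the ratio was still past 2-fold (1.25). *Hoxb3*, at 13.3 against 7.25 CPM, was not called here. This comparison shares its cells with those above and adds no separate evidence. *Hoxa7*, at 11.0 against 16.4 CPM, was lower in Pi16-positive cells in 3 of 3 libraries and not called, and with classes by nearest mean profile the direction turned, at 15.7 against 12.9 CPM.

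Melanoma cells had another Hox profile. The tail-side genes *Hoxa9*, *Hoxa10* and *Hoxa11* were high, and the genes that led in the stroma were low. Of 18 Hox genes tested against matrix-gene cells, 5 were called higher (*Hoxa7*, *Hoxa9*, *Hoxa10*, *Hoxa11* and *Hoxd4*) and 11 lower (*Hoxa3*, *Hoxa4*, *Hoxa5*, *Hoxb2* to *Hoxb8* and *Hoxc4*), where 17.7% and 21.4% of 13353 genes were called. The median log2 ratio was -2.42 for Hox genes and 0.07 for all genes. *Hoxa9*, *Hoxa10*, *Hoxa11* and *Hoxd4* had 4, 3, 1 and 1 UMIs in matrix-gene cells and reached the 20 UMIs only through melanoma cells, where they are high. Of the lower genes, *Hoxa4*, *Hoxb3*, *Hoxb4*, *Hoxb5*, *Hoxb6* and *Hoxc4* had 5, 19, 7, 18, 15 and 10 UMIs in melanoma cells and reached it only through matrix-gene cells. The 2 counts and the median are therefore a description and support nothing by themselves.

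*Hoxa10*, which patterns the lumbar spine and the uterus, measured 35.3, 30.4 and 29.8 CPM in melanoma cells, against 0.334, 0 and 0 in matrix-gene, 1.61, 2.20 and 0 in Pi16-positive and 1.00, 0.295, 0.150 and 0 in mesothelial-gene cells. *Hoxa11*, of the limb, kidney and uterus, measured 16.3, 15.2 and 17.4 CPM, against 0.111, 0 and 0, 0.559, 2.20 and 0 and 0.408, 0.0985, 0 and 0. *Hoxa9*, known in blood progenitors and leukemia, measured 6.55, 10.3 and 9.95 CPM, against 0.334, 0 and 0.696, 0.745, 0 and 0 and 1.11, 0.131, 0.450 and 0.513. For these 3 genes each melanoma value was above every stromal value. Matrix-gene cells of the 3 libraries held only 3 UMIs of *Hoxa10* and 1 of *Hoxa11*, and the pooled ratios were 126 (42.8 to 617) and 184 (32.4 to 7308). The *Hoxa9* ratio was 22.2 (8.27 to 83.6).

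*Hoxd4*, a gene of the neck vertebrae outside the tail-side groups, measured 4.25, 9.78 and 3.32 CPM in melanoma cells, against 0.111, 0 and 0 in matrix-gene, 0.124, 0 and 0 in Pi16-positive and 0.334, 0.0657, 0.150 and 0 in mesothelial-gene cells, a pooled ratio over matrix-gene cells of 59.9 (10.2 to 2419) with 1 UMI in the latter. It was highest in the tdTomato neg eGFP+ library. The *Hoxa7* log2 ratio of 1.13 in melanoma over matrix-gene cells fell to 0.78 without the tdTomato neg eGFP+ library and was -0.45 in thinned cells, and the call was also lost with at most 5% mitochondrial UMIs (0.88), with 2 UMIs of each marker (0.17), with UMIs pooled (0.62) and with 5 CPM added (0.72). In thinned cells the calls of *Hoxa9* (0.73), *Hoxa11* (3.70) and *Hoxd4* (2.59) were lost, those of *Hoxa9* and *Hoxd4* at a minimum of 100 UMIs, and that of *Hoxd4* with 2 UMIs of each marker (2.23). *Hoxa13* and *Hoxd13*, the tail-most genes of their clusters, had 5 and 7 UMIs in all kept cells and were picked after their values were seen. None of the *Hoxa13* UMIs was in melanoma cells.

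Among the lower genes, *Hoxb2* had a log2 ratio of -3.93 (-4.49 to -3.51 by library), *Hoxb7* -3.20 and *Hoxa5* -2.52. *Hoxb4* had -2.92, and -2.34 without the tdTomato neg eGFP+ or -3.72 without the tdTomato+ eGFP neg library. *Hoxa3* was nearest the threshold at -1.15 and was -0.81 without the tdTomato neg eGFP+ library and -0.87 with 5 CPM added. In thinned cells the calls of *Hoxa3*, *Hoxa4*, *Hoxb4*, *Hoxb6* and *Hoxc4* were lost, with log2 ratios of -1.30, -3.25, -3.55, -3.39 and -2.53, and those of *Hoxa4* and *Hoxc4* were lost at a minimum of 100 UMIs. The summed *Hoxb* level was 16.6 CPM in melanoma and 196 in matrix-gene cells.

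Read along the axis, paralog groups 9 to 13 gave 52.3% of the Hox UMIs of melanoma cells, against 2.00%, 0.874% and 1.12% in Pi16-positive, matrix-gene and mesothelial-gene cells. By library their level was 59.2, 56.0 and 57.2 CPM in melanoma cells, 5.46, 7.71 and 2.61 in Pi16-positive, 1.78, 3.30 and 2.78 in matrix-gene and 5.97, 1.12, 1.20 and 1.03 in mesothelial-gene cells. Groups 1 to 4 averaged 24.7 CPM in melanoma cells against 126, 149 and 89.3 in the stromal classes, and groups 5 to 8 averaged 27.7 against 142, 145 and 116. The level of groups 9 to 13 in mesothelial-gene cells came mostly from the tdTomato neg eGFP neg library, and its class mean was 1.11 CPM without it.

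**Figure D3:**
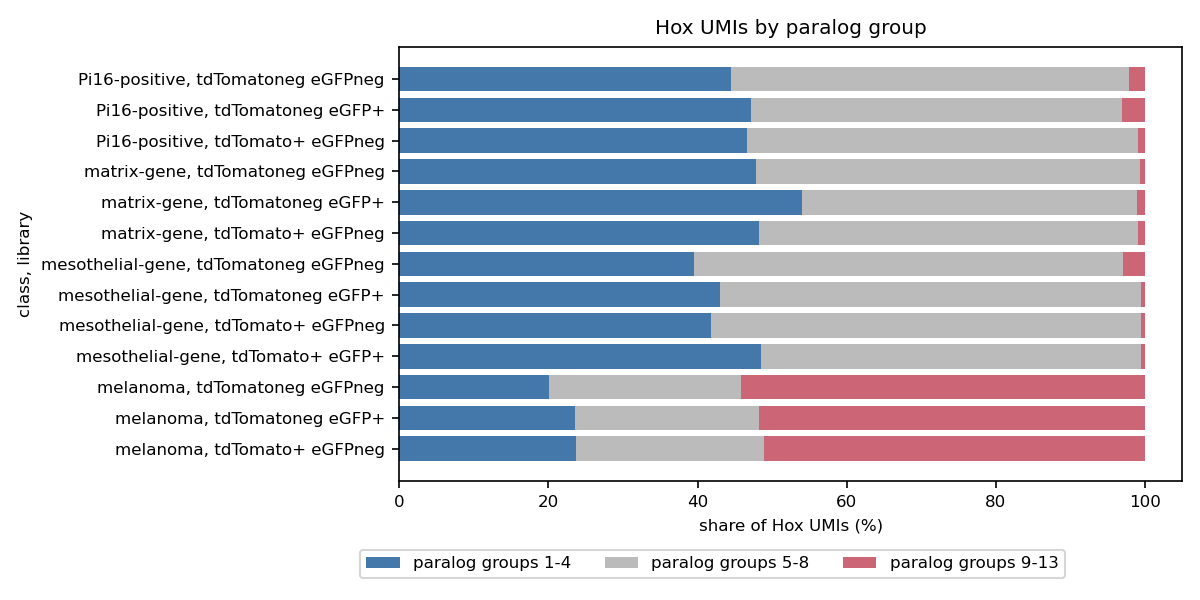
Hox UMIs by paralog group. Bars give the share of Hox UMIs in paralog groups 1 to 4, 5 to 8 and 9 to 13, in classes of at least 50 cells in a library.

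Cell by cell, 63.1% of melanoma cells had a UMI of *Hoxa9*, *Hoxa10* or *Hoxa11*, against 1.36% of Pi16-positive, 0.675% of matrix-gene, 1.11% of mesothelial-gene and 1.28% of immune cells. A UMI of *Hoxa5* or *Hoxb2* was found in 18.3% of melanoma cells, 40.0% of Pi16-positive, 60.3% of matrix-gene, 56.0% of mesothelial-gene and 34.7% of immune cells, with depth greatest in melanoma cells. Thinned to 1000 UMIs, *Hoxa10* was seen in 5.35% of melanoma cells and in at most 0.172% of a stromal class.

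RNA of other cells was present in each class and was measured beside these Hox values. All 7 melanoma markers were found in each class, *Dct* highest in the class means, and summed to 298, 368 and 32.8 CPM in Pi16-positive, 211, 27.5 and 48.7 in matrix-gene and 152, 18.3, 20.4 and 20.02 in mesothelial-gene cells, against 13488, 12786 and 12197 in melanoma cells. In the tdTomato+ eGFP neg library *Dct* was only 1.86 CPM of the Pi16-positive and 2.78 of the matrix-gene sum. *Mitf* had means of 27.3, 24.6 and 7.74 CPM in Pi16-positive, matrix-gene and mesothelial-gene cells, against 360 in melanoma cells, so these sums are not melanoma RNA alone in equal measure for each marker. In the Pi16-positive cells of the tdTomato neg eGFP neg library *Hoxa10* was at 4.58% of its melanoma level, beside 2.71% for *Mlana*, 1.93% for *Pmel* and 1.83% for *Dct*. In those of the tdTomato neg eGFP+ library it was at 7.24%, resting on 2 UMIs, beside 1.84%, 3.48% and 2.87%, and in those of the tdTomato+ eGFP neg library at 0. In stromal cells with no UMI of *Mlana*, *Pmel* or *Dct*, a split chosen after the melanoma RNA had been seen, *Hoxa10* was at 0.977 CPM in Pi16-positive, 0 in matrix-gene and 0.400 in mesothelial-gene cells, against 1.41, 0.261 and 0.560 in all cells of these classes pooled. *Hoxa11* was at 0.130 CPM in Pi16-positive cells of that split, against 0.552 pooled, and *Hoxd4* at 0, against 0.1004. In mesothelial-gene cells *Hoxa11* was at 0.209 against 0.212. *Hoxa9* was at 0.716 against 0.602 in Pi16-positive, 0.237 against 0.348 in matrix-gene and 0.571 against 0.575 in mesothelial-gene cells. In the tdTomato neg eGFP neg library *Hoxa9* was at 11.4% of its melanoma level in Pi16-positive cells and 17.0% in mesothelial-gene cells. In melanoma cells *Hoxa5* was at 14.1%, 19.3% and 14.3% of its matrix-gene level in the same library, and *Hoxb2* at 7.51%, 3.45% and 5.84%, beside 4.59%, 2.93% and 3.43% for the collagen gene *Col1a1* and 5.50%, 3.00% and 2.45% for *Col3a1*, and 8 of 8 matrix markers summed to 1651, 1209 and 1309 CPM (*Col3a1* highest). The part of free RNA in these low Hox levels was not tested.

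Within a class, the sorted populations were compared with the tdTomato neg eGFP neg library, each difference resting on 1 library a side with no replicate check, and a gene counted as past 2-fold where the log2 ratio after adding 1 CPM was at least 1 in size. Unassigned cells, 51.2%, 75.4% and 76.1% of the 3 reporter-positive libraries, were outside these comparisons. Matrix-gene cells were 1.42% of the tdTomato neg eGFP+ and 2.56% of the tdTomato+ eGFP neg library. Values named plainly as ratios are of CPM with nothing added. After adding 1 CPM, no Hox gene with at least 20 UMIs was past 2-fold and higher in a reporter-positive population in any of the 5 comparisons. With nothing added, *Hoxa4* in matrix-gene cells of the tdTomato neg eGFP+ library had a ratio of 2.02 (0.867 to 4.19), whose interval includes 1, and *Hoxc4* is given below. In matrix-gene cells 0 of 13 Hox genes tested were past 2-fold in the tdTomato+ eGFP neg library, where 5.87% of all genes were, and 2 in the tdTomato neg eGFP+ library, where 7.23% were, with median log2 ratios of 0.03 and 0.08 for Hox genes and 0.15 and 0.06 for all genes. These 2 were *Hoxa2*, with 0 against 40 UMIs (ratio of at most 0.954), and *Hoxa7*, with 1 against 52, a ratio of 0.190 whose interval (0.00472 to 1.11) includes 1. Both rested on the 85 matrix-gene cells of that library, and the leading genes *Hoxa5* and *Hoxb2* had ratios of 1.01 and 1.29. In the tdTomato+ eGFP neg library *Hoxc4* was at 12.5 against 6.12 CPM, a ratio of 2.05 (1.13 to 3.54) and a log2 ratio of 0.93 after adding 1 CPM.

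In mesothelial-gene cells, of 22 Hox genes tested, 3 were past 2-fold and lower in the tdTomato neg eGFP+ library (*Hoxc6*, *Hoxc8* and *Hoxc9*), where 1.69% of all genes were past it, 2 in the tdTomato+ eGFP neg library (*Hoxc8* and *Hoxc9*), beside 4.30%, and 5 in the tdTomato+ eGFP+ library (*Hoxa10*, *Hoxb5*, *Hoxc6*, *Hoxc8* and *Hoxc10*), beside 7.30%. The low genes among them reached 20 UMIs through the tdTomato neg eGFP neg class, where they are high. The classes of both tdTomato+ libraries were smaller, so a lower value was the one the minimum could show there. The tdTomato neg eGFP+ class was not smaller (2552 against 2521 cells), so that reason does not hold for it. None of these counts is read as support for a direction. *Hoxa5* was slightly higher in the tdTomato neg eGFP+ and tdTomato+ eGFP neg libraries, with ratios of 1.25 (1.17 to 1.34) and 1.33 (1.20 to 1.48). *Hoxb2* had ratios of 1.28, 1.31 and 1.30, each with an interval above 1. In the tdTomato+ eGFP+ library *Hoxa10*, *Hoxc6*, *Hoxc8* and *Hoxc10* had 0 UMIs in 146 cells, and the interval of the ratio reached 2.03 for *Hoxa10* and 1.81 for *Hoxc10*, so for these 2 the counts do not show a difference. The mesothelial-gene class itself varied over the 4 libraries: 8 of 8 matrix markers (*Col3a1* highest) summed to 9187, 12812, 17364 and 15519 CPM, 9 of 9 mesothelial markers (*Upk1b* highest) to 2257, 1798, 1208 and 1415, 3 of 4 epithelial markers (*Krt14* highest, *Krt5* at 0) to 95.8, 26.4, 7.65 and 3.08, 4 of 4 pericyte and muscle markers (*Des* highest) to 66.0, 124, 210.5 and 192, and the melanoma markers as above. Their part in these Hox differences was not tested.

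*Hoxc8*, of the lower thorax, was the Hox gene with the log2 ratio largest in size in each of these mesothelial-gene comparisons, at 3.52, 0.394, 0.450 and 0 CPM. *Hoxc9*, a thoracic gene, was at 1.22, 0.0657, 0 and 0.513 CPM and *Hoxc10*, a lumbar gene, at 1.11, 0.230, 0.450 and 0. Melanoma cells had no UMI of any of the 3. These low genes were singled out after their values were seen. In the GENCODE M21 annotation these genes overlap *Hoxc5* on the same strand, and 11 Hox genes in all have such an overlap with another gene counted (*Hoxa3* to *Hoxa6*, *Hoxc5* to *Hoxc10*, and *Hoxd3* with *Hoxd4*), so their levels are uncertain where shared reads were dropped.

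After these values had been seen, mesothelial-gene cells of the tdTomato neg eGFP neg library were split by a *Hoxc8* UMI. Of 68 cells with one, 20 also had *Hoxc9* or *Hoxc10* (29.4%, 18.98 to 41.7), against 29 of 2453 without (1.18%, 0.793 to 1.69). The former were deeper, with a median of 17661.5 UMIs against 8957, and 20.6% against 11.1% of them were among the cells of highest doublet score. Among cells of at least 10000 UMIs the shares were 31.6% of 57 and 2.13% of 1081, with medians of 19347 and 15041 UMIs, and the part of depth was not tested. Over all depths *Hoxa9* was at 9.97 against 0.699 CPM (ratio 14.3, 6.26 to 31.3), *Hoxa10* at 6.64 against 0.738 and *Hoxd8* at 9.14 against 0.583. *Hoxa5* went the other way, at 19.1 against 53.4 CPM (ratio 0.358, 0.226 to 0.539). In the 44 unassigned cells of that library with a *Hoxc8* UMI, 31.8% had *Hoxc9* or *Hoxc10* against 0.810% without, and *Hoxa5* was at 15.4 against 49.5 CPM (ratio 0.312, 0.134 to 0.617). Those cells too were deeper, with medians of 9744 and 3872.5 UMIs, and 18.2% against 6.22% had the highest doublet scores. Their ratios for *Hoxa10* (2.62, 0.306 to 10.2) and *Hoxd8* (4.96, 0.561 to 20.6) had intervals that include 1. The other libraries held 10, 2 and 0 such mesothelial-gene cells, too few for the split.

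Genes that act with or around the Hox proteins were read by the same rule. Among TALE cofactors, *Meis2* was at 199.7 and 184 CPM in mesothelial-gene and matrix-gene cells and *Meis1* at 76.5 and 85.9, near level between the 2 classes. *Pbx3*, *Pknox1*, *Pbx2* and *Meis3* were at 25.8, 17.4, 13.8 and 5.36 CPM in mesothelial-gene cells. Larger differences, called in mesothelial-gene over matrix-gene cells beside 6.77% higher and 6.90% lower of all genes, were seen for *Pknox2*, at 3.099 CPM in mesothelial-gene against 33.9 in matrix-gene and 32.3 in Pi16-positive cells, and *Pbx4*, at 4.61 against 0.223 in matrix-gene cells. In melanoma over matrix-gene cells *Meis1*, at 6.91 CPM, and *Pknox2*, at 1.03, were called lower and *Pbx4* higher, beside 21.4% lower and 17.7% higher of all genes, while *Meis2* was at 275 CPM and not called.

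Of 20 Trithorax and Polycomb genes, 0 were called in the stromal comparisons, beside 6.77% higher and 6.90% lower of all genes in mesothelial-gene over matrix-gene, 3.01% and 0.816% in Pi16-positive over matrix-gene and 7.34% and 4.99% in Pi16-positive over mesothelial-gene cells. In melanoma over matrix-gene cells 8 of 19 tested were called higher and 1 lower, beside 17.7% and 21.4% of all genes. The higher ones included the Polycomb methyltransferase gene *Ezh2* (137 against 35.4 CPM), the Polycomb genes *Cbx7* (3.12 against 0.441), *Cbx8* (11.7 against 3.42) and *Bmi1* (33.8 against 11.2), and the Trithorax gene *Ash2l* (59.1 against 14.2). The demethylase gene *Kdm6b* was lower (20.4 against 62.7). The 3 Cdx genes, which act upstream of Hox genes in the embryo, had too few UMIs to be tested. Of 9 noncoding genes of the Hox clusters, *Hoxa11os* (12.4 against 0.148 CPM) and *Hoxd3os1* (4.01 against 0.0371) were called higher in melanoma than in matrix-gene cells, and *Hoxb5os*, *Hoxaas3* and *Hoxb3os* lower, of 7 tested, beside the same 17.7% and 21.4%. At their matrix-gene levels *Hoxa11os* and *Hoxd3os1*, like *Cbx7* above, reached the 20 UMIs only through melanoma cells, where they are high. Their calls are a description and add no separate support for those of *Hoxa11* and *Hoxd4*. *Hoxb5os* alone of 6 tested was called, lower, in mesothelial-gene over matrix-gene cells (0.768 against 6.15 CPM, beside 6.90% of all genes), the same direction as *Hoxb5*, and alone of 7, higher, in Pi16-positive over mesothelial-gene cells (beside 7.34%). Of 5 tested in Pi16-positive over matrix-gene cells, 0 were called, beside 3.01% higher and 0.816% lower of all genes.

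Other positional transcription factors were read beside the Hox genes, with no test of a difference between the 2 lists. Of 40 tested, 6 were called higher and 14 lower in mesothelial-gene over matrix-gene cells, beside 6.77% and 6.90% of all genes, with a median log2 ratio of -0.38. *Tcf21*, a factor of visceral mesenchyme, was at 2.02 against 34.96 CPM, *Msx1* at 4.04 against 34.7 and *Prrx2*, of limb and skin mesenchyme, at 12.3 against 64.5. In Pi16-positive over matrix-gene cells 5 of 35 were called higher, *Tcf21* among them (73.0 against 34.96 CPM), and 2 lower (all genes 3.01% and 0.816%), and in Pi16-positive over mesothelial-gene cells 13 and 5 of 42 (7.34% and 4.99%). In melanoma over matrix-gene cells 7 of 35 were called higher, led by *Irx5* (24.3 against 0.111 CPM), and 20 lower (17.7% and 21.4%), led by *Prrx1* (10.6 against 233) and *Barx1* (9.74 against 214). At its matrix-gene level *Irx5* reached the 20 UMIs only through melanoma cells, where it is high.

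The promoters of *Hoxa9*, *Hoxa10* and *Hoxa11* are shown because these neighbours were high together in melanoma cells, and those of *Hoxa7* and *Hoxb8* because these genes differed in opposite directions between mesothelial-gene and matrix-gene cells. Windows of 300 bases around the start are from RefSeq on GRCm38.p6, where 22 of the 39 Hox genes had one or more, 24 in all. *Hoxb5* was not among them. Each was searched on both strands for TGATNNAT, a motif of Hox and Pbx proteins bound together, TTTATG, a core bound by Cdx and tail-side Hox proteins, and TAATTA, a core bound by many homeodomains, and matches are in capitals. TGATNNAT was in 4 of 24 Hox windows (16.7%) and 8.85% of all 32851 windows of this length, TTTATG in 5 (20.8%) and 11.9%, and TAATTA in 2 (8.33%) and 5.29%. The *Hoxa9* window is chr6:52227321-52227620 (minus strand), the *Hoxa10* windows are chr6:52234890-52235189 (minus strand) and chr6:52240805-52241104 (minus strand), the *Hoxa11* window is chr6:52245761-52246060 (minus strand), the *Hoxa7* window is chr6:52218524-52218823 (minus strand) and the *Hoxb8* window is chr11:96281655-96281954 (plus strand). The *Hoxa9*, *Hoxa10* and *Hoxa11* windows held no match, *Hoxa7* 2 of TTTATG, and *Hoxb8* 2 of TTTATG and 1 of TGATNNAT. A match is a run of letters, and binding was not measured here.
Hoxa9: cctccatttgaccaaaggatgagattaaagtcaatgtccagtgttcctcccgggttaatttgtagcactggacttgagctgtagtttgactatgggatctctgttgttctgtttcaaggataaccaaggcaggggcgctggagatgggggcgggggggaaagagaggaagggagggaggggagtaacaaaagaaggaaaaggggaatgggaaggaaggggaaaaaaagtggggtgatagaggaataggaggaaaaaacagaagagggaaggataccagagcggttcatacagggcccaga
Hoxa10, window nearer Hoxa9: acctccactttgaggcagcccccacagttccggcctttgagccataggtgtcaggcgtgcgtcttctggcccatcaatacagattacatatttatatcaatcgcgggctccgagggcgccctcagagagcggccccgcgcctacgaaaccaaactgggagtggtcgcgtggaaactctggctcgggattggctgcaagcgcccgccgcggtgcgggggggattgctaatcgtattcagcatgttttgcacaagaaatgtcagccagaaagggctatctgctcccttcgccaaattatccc
Hoxa10, window nearer Hoxa11: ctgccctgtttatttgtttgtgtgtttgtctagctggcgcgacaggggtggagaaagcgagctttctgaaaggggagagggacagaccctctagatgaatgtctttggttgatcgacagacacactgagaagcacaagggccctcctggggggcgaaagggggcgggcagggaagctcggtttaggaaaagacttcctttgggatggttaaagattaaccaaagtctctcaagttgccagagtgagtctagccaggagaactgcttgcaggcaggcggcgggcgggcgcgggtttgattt
Hoxa11: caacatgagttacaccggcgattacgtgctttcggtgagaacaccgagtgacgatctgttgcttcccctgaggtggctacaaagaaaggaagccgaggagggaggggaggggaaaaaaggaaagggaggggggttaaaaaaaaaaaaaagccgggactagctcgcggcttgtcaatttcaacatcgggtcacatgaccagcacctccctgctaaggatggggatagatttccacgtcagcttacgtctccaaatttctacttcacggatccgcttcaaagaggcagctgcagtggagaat
Hoxa7: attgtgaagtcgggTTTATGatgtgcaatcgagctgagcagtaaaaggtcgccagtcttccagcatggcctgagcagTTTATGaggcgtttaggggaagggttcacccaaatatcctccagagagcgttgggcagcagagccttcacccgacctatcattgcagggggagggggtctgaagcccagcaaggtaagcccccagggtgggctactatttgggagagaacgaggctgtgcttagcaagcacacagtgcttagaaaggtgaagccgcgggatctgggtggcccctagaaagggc
Hoxb8: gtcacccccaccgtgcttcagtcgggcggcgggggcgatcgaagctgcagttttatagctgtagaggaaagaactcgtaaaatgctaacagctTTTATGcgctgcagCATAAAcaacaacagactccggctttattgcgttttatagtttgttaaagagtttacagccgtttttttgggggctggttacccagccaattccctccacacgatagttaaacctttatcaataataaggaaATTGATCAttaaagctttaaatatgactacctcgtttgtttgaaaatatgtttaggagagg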

How the data were processed

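The authors deposited 10x Genomics 3′ v3.1 filtered matrices of UMI counts for 4 libraries. The submitters' processing notes name Cell Ranger 10.0.0, STAR, Seurat 5.0 and GRCm39, while the file headers name Cell Ranger 8.0.0, so the version is uncertain. The raw counts were read with Python 3.11.15, pandas 2.3.3, numpy 2.4.6, scipy 1.17.1 and scanpy 1.11.5, and the scripts were tested on simulated data. Libraries held 90259852, 63310850, 52046896 and 10071954 UMIs, of which kept cells had 83613839, 58778233, 49581776 and 9351387, and 3 counts among the latter are 0.0359, 0.0510, 0.0605 and 0.321 CPM. The members and lists were chosen with earlier results of these data known. Immune cells were set first, a cell meeting several conditions took the class with the most marker UMIs, and *Pi16* was read only outside immune, melanoma and mesothelial-gene cells. Thinning used seed 1 and left out cells under 1000 UMIs. Doublets were not removed. An alternative left out the 1104, 334, 225 and 8 barcodes of highest Scrublet score. Level intervals are Poisson, share intervals Clopper-Pearson and ratio intervals conditional binomial. Values by library are given for Hox genes of at least 5 CPM in a class. From the other lists, called genes are named, at most 6 a list by size of fold, with TALE cofactors above 5 CPM. Results that need an item withheld for evaluation are not reported here. Alternatives covered the mitochondrial limit, gates, nearest mean profiles, pooling, the added CPM, the UMI minimum, thinning, sex marks, doublets and each library. Reporter transcripts are not among the genes counted. Gene overlaps are from GENCODE M21.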

Additional observations from a re-analysis of the deposited data

How the results depend on the processing

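Of the sums and counts recomputed under the alternatives, 204 kept their value within its interval or within 1.5 times and 47 moved. Of levels and shares, 122 kept their value and 4 moved, each a summed level of paralog groups 9 to 13: 9.11 CPM by nearest mean profile and 3.04 in *Xist*-marked cells (Pi16-positive), 1.58 in *Xist*-marked cells (matrix-gene) and 1.11 on leaving out the tdTomato neg eGFP neg library (mesothelial-gene). Of the values of called Hox genes, 374 kept their call, 30 kept the direction only and 1 turned. *Hoxb8* was called under every alternative in 3 comparisons, *Hoxa7* in mesothelial-gene over matrix-gene cells, and *Hoxa5*, *Hoxa10*, *Hoxb2*, *Hoxb3*, *Hoxb5* and *Hoxb7* in melanoma over matrix-gene cells. The moves follow by setting, and the cause was not tested.

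With 2 UMIs of each marker, the log2 ratio of summed Hox CPM was -0.39 in mesothelial-gene over matrix-gene, 0.0307 in Pi16-positive over matrix-gene and 0.39 in Pi16-positive over mesothelial-gene cells. Hox genes called higher in melanoma over matrix-gene cells were 3, and those past 2-fold over tdTomato neg eGFP neg were 2 in tdTomato+ eGFP neg matrix-gene cells and 5 and 9 in tdTomato+ eGFP neg and tdTomato+ eGFP+ mesothelial-gene cells. By nearest mean profile, which kept 67.5% of Pi16-positive and 95.8% of mesothelial-gene cells in class, the summed ratios were -0.39, 0.0099 and 0.40 in the same order and -1.30 in melanoma over matrix-gene cells, and 0 Hox genes were past 2-fold in tdTomato neg eGFP+ matrix-gene cells. With UMIs pooled, the mesothelial-gene over matrix-gene sum was -0.38, and 0 genes were called higher in Pi16-positive over matrix-gene cells. With CPM averaged over cells these were -0.54 and 3, and the Pi16-positive over matrix-gene sum was -0.19.

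With 0.5 CPM added, 2 genes were called higher in mesothelial-gene over matrix-gene and 1 lower in Pi16-positive over mesothelial-gene cells, and with 5 CPM added 0 higher in Pi16-positive over matrix-gene cells. At least 100 UMIs left 3 called higher in melanoma over matrix-gene cells. In thinned cells 2 were called higher in mesothelial-gene over matrix-gene, 1 lower in Pi16-positive over matrix-gene, 1 higher and 6 lower in melanoma over matrix-gene and 1 higher in Pi16-positive over mesothelial-gene cells, and *Hoxa7* in melanoma over matrix-gene cells turned to -0.45.

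Without cells of highest Scrublet score 1 gene was past 2-fold in tdTomato+ eGFP neg matrix-gene cells and 3 in tdTomato+ eGFP+ mesothelial-gene cells, and without cells meeting several conditions 1 in tdTomato neg eGFP+ mesothelial-gene cells. In *Xist*-marked cells the summed ratios were -0.22 in mesothelial-gene over matrix-gene and 0.0932 in Pi16-positive over matrix-gene cells, the genes called higher were 3 and 0, and 4 in Pi16-positive over mesothelial-gene cells, with 1 past 2-fold in each of the tdTomato neg eGFP+ and tdTomato+ eGFP neg mesothelial-gene comparisons. In Y-marked cells the Pi16-positive sums were 0.0459 over matrix-gene and 0.53 over mesothelial-gene cells, with 0 and 5 genes called higher, and 2 in mesothelial-gene over matrix-gene cells.

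Leaving out each library in turn, the Pi16-positive over matrix-gene sum ranged from -0.22 to 0.0054 and its genes called higher from 0 to 3, and the Pi16-positive over mesothelial-gene sum from 0.26 to 0.41. Stromal cells without melanoma UMIs, an alternative chosen after seeing the data, moved 0 of the 35 values recomputed in this check. Some low levels of single genes given above for that split did change, such as *Hoxa11* in Pi16-positive and *Hoxa10* in matrix-gene cells. That of *Hoxa11* in mesothelial-gene cells hardly did. No paired analysis was possible for the reporter comparisons because each population has 1 library, while the class ratios were taken within 3 libraries and not tested. Depth limits the genes under 20 UMIs and the 146 mesothelial-gene cells of the tdTomato+ eGFP+ library, and the sex-marked and strict-gate settings rest on 1 to 3 libraries in the class comparisons. Melanoma comparisons and the tdTomato+ eGFP+ one could not be recomputed in sex-marked cells, nor the tdTomato neg eGFP+ matrix-gene one there or with 2 UMIs of each marker, nor the tdTomato+ eGFP neg matrix-gene one in *Xist*-marked cells, with under 50 cells.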

Other observations

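Male and female mice were used, and cells were split by *Xist* or Y-linked UMIs, with *Hoxb7* picked after its values were seen. Cells marked by *Xist* only were 74.9% of the marked Pi16-positive, 43.5% of the marked matrix-gene and 37.0% of the marked mesothelial-gene cells. With at least 50 marked cells on each side, the ratio of *Hoxb7* CPM in *Xist*-marked over Y-marked cells was 0.647 (0.496 to 0.847) and 0.692 (0.379 to 1.27) in Pi16-positive cells of the tdTomato neg eGFP neg and tdTomato+ eGFP neg libraries. It was 0.535 (0.364 to 0.775) in matrix-gene cells of the former. In mesothelial-gene cells it was 0.905 (0.738 to 1.11), 0.562 (0.452 to 0.695) and 0.560 (0.357 to 0.859) in the tdTomato neg eGFP neg, tdTomato neg eGFP+ and tdTomato+ eGFP neg libraries. Of the 6 intervals, 2 include 1. In the Pi16-positive cells of the tdTomato neg eGFP neg library the 2 sets had median depths of 4956 and 10583 UMIs. Animals and sex cannot be told apart here.

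In Pi16-positive, matrix-gene, mesothelial-gene and melanoma cells the 5 immune markers summed to 12.3, 8.04, 10.6 and 5.68 CPM, the 5 endothelial markers to 6.13, 7.09, 9.39 and 21.6, the 4 epithelial markers to 1.72, 1.61, 33.2 and 2.41 and the 4 pericyte and muscle markers to 59.7, 78.8, 148 and 29.0. Single genes made up most of the highest of these sums: *Egfl7* 21.3 CPM of the endothelial sum in melanoma cells, with *Cdh5* and *Tie1* at 0, *Krt14* 32.6 of the epithelial sum in mesothelial-gene cells, with *Krt5* at 0, and *Des* 144.8 of the pericyte and muscle sum there, with *Rgs5*, *Cspg4* and *Myh11* at 0.102, 1.25 and 1.91 against 2.06, 2.24 and 5.85 in matrix-gene cells. Their part in the Hox levels was not tested.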
